A study of Drosophila melanogaster with 4 samples.

Results

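The telomere-side 2 Mb of the chromosome arms 2L, 3L and 3R of *Drosophila melanogaster* were examined for trimethylation of lysine 79 of histone H3 (H3K79me3). The windows are the first 2 Mb of 2L and 3L and the last 2 Mb of 3R, where the arm sequences end towards the telomere, and together they are 6 Mb long. An enriched region, here called a cluster, was counted in a window when its midpoint lay there, with arm lengths of 23011544, 24543557 and 27905053 bases from the file headers. By this rule 311 of 6264 clusters of replicate 1 (4.96%), 330 of 6470 of replicate 2 (5.10%) and 319 of 6943 of the combined list (4.59%) were members. Chromatin was immunoprecipitated with the antibody Abcam ab2621, lot 1, and sequenced (ChIP-seq). The chromatin came from nuclei of the sieved heads of mixed adult flies of the wild-type strain Oregon-R-modENCODE. Besides the 2 ChIP libraries there were 2 inputs, each named in the labels as background for the ChIP library with its number. Each ChIP library has 1 list, and a further list, named the combined list here, covers the replicate set.

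Heads hold many cell types, so a cluster does not say in which cells the mark lies, and the lists hold no gene-level values with which the tissue could be checked. Whether both libraries stem from separate fly collections is not in the labels, so their spread may be technical. Positions refer to FlyBase release 5, as the headers state. The score of a cluster is the authors' own value on an undefined scale and serves only to rank clusters within a list. The read depth is unknown. With 2 libraries an exact paired sign-flip test cannot give a p below 0.5, so none was run. Differences between windows are set beside the spread of both libraries, which does not cover how coverage varies along an arm.

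Methylation of this lysine is set by Dot1, called grappa in flies, and is commonly found over the bodies of transcribed genes. In budding yeast, where the enzyme was discovered, it is named for its disruption of silencing near telomeres. Fly telomeres are not kept by telomerase but by arrays of the retrotransposons HeT-A, TART and TAHRE, with repeated telomere-associated sequence on their inner side. How much of that is part of the release 5 arms was not examined, so every distance is counted from where the arm sequence ends, whatever lies beyond it.

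In the order of the RefSeq gene table, which is of release 6, the outermost protein-coding genes of 2L are l(2)gl, a tumour suppressor for cell polarity, Ir21a, an ionotropic receptor, Cda5, dbr, galectin, CG11374 and net. Those of 3L are mthl8, CG43149, Lsp1gamma, a larval serum protein, CG13405, CG12483 and Pdk1, a protein kinase. Those of 3R are Map205, a microtubule-associated protein, mod, krz, an arrestin, Pos and heph, a polypyrimidine tract-binding protein. Because the builds differ, no cluster was placed on any of these genes.

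Among all deposited clusters, the distance from the arm end to the nearest one differed between the arms by far more than between the libraries. On 2L replicate 1 gave 67329 bases and replicate 2 gave 67211 bases. On 3L it was 132095 and 132048 bases, and on 3R 10736 and 10747 bases. The libraries thus differed by 118, 47 and 11 bases, while the arms ranged from a mean of 10.7 kb on 3R to 132 kb on 3L. The combined list gave 67205 bases on 2L, 131949 bases on 3L and 10714 bases on 3R. When each list was cut to the upper 50% of its scores, this agreement of the libraries was kept on 3L alone. The nearest such cluster lay at 73.8 kb in replicate 1 and 94.4 kb in replicate 2 on 2L, at 132 kb in both on 3L, and at 10.7 kb in replicate 1 and 177 kb in replicate 2 on 3R. The difference between the libraries on 3R was then larger than that between any 2 arms in either library.

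**Figure D1:**
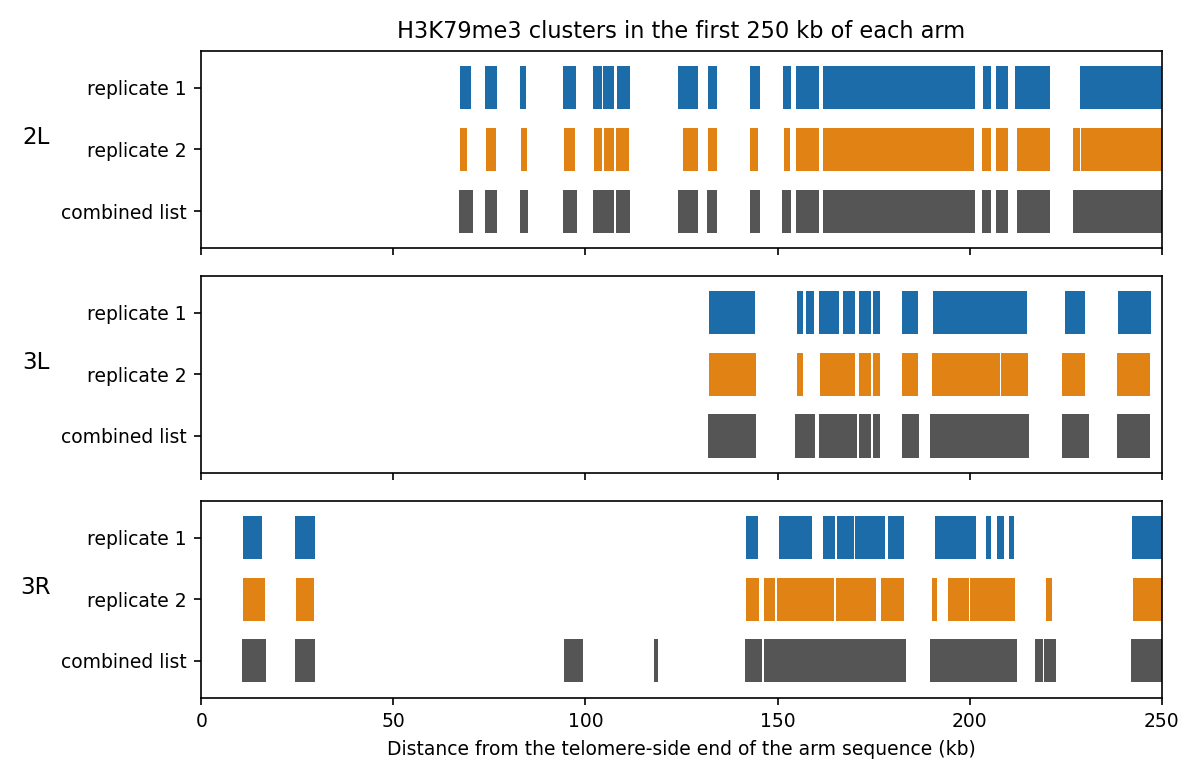
Clusters of each list near the end of each arm, drawn as bars against the distance from the telomere-side end of the arm sequence in kb (blue, replicate 1; orange, replicate 2; grey, combined list). The nearest cluster lies 67.3 kb from the end on 2L, 132 kb on 3L and 10.7 kb on 3R, and on 3R a long gap follows the outermost pair.

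The outermost clusters differed in kind from arm to arm. On 2L the outermost cluster ran from 67330 to 70167 in replicate 1 and from 67212 to 69200 in replicate 2. Its score was low, at the 11.9 percentile of its list in replicate 1 and the 6.77 percentile in replicate 2. Another 3 clusters followed within the first 100 kb in each library, so that the outermost marks of 2L were a run of 4 short clusters, 1541 to 3204 bases wide.

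On 3L the outermost cluster was long and strong instead. It ran from 132096 to 144238 in replicate 1, a width of 12143 bases, and from 132049 to 144305 in replicate 2, a width of 12257 bases. Its score stood at the 93.3 percentile in replicate 1 and at the 89.95 percentile in replicate 2. No list had any cluster between it and the end of the arm.

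On 3R a pair of clusters of middling score stood apart near the end. The outer one ran from 27889265 to 27894317 in replicate 1 and from 27888450 to 27894306 in replicate 2. The inner one ran from 27875577 to 27880632 and from 27875712 to 27880520. Their scores lay between the 46.97 and the 54.4 percentile of their lists. Beyond this pair no cluster followed for 112334 bases in replicate 1 and 112399 bases in replicate 2. In this gap the combined list alone had 2 clusters, from 27805814 to 27810585 and from 27786064 to 27787196, and neither overlapped a cluster of either library. On each of the 3 arms, then, both libraries left 67.2 kb or more without a cluster in the outer 150 kb, at the end itself on 2L and 3L and inward of the outermost pair on 3R.

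In steps of 100 kb the covered sequence was low in the outermost step of every arm and higher in the step next to it. Clusters took 10.8% of the outermost step of 2L in replicate 1 and 9.16% in replicate 2. That of 3L held no cluster in any list, and that of 3R was covered to 10.1% and 10.7%. The next steps, from 100 to 200 kb, held 64.9% and 62.1% on 2L, 42.8% and 41.5% on 3L, and 40.6% and 44.5% on 3R.

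Steps as low as these were also found away from the ends. Among the 514 steps of the middle of the arms, here the sequence at least 4 Mb from both ends, 20.2% were covered as little as the outermost step of 2L, 5.64% as little as that of 3L and 21.0% as little as that of 3R. By the same count, 93.2% of the middle steps were covered no more than the step of 2L from 100 to 200 kb. For the step from 100 to 200 kb the share was 75.7% on 3L and 75.9% on 3R. Over the 3 whole arms, 23.1% of all 754 steps were covered under 10% as a mean of both libraries. In the middle 105 of 514 steps were (20.4%), and in the telomere-side windows 9 of 60 (15.0%). By arm the windows had 20% of such steps on 2L, 10% on 3L and 15% on 3R. The middle of these arms had 23.3%, 24.8% and 14.6%, so on 3R the window was not lower.

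**Figure D2:**
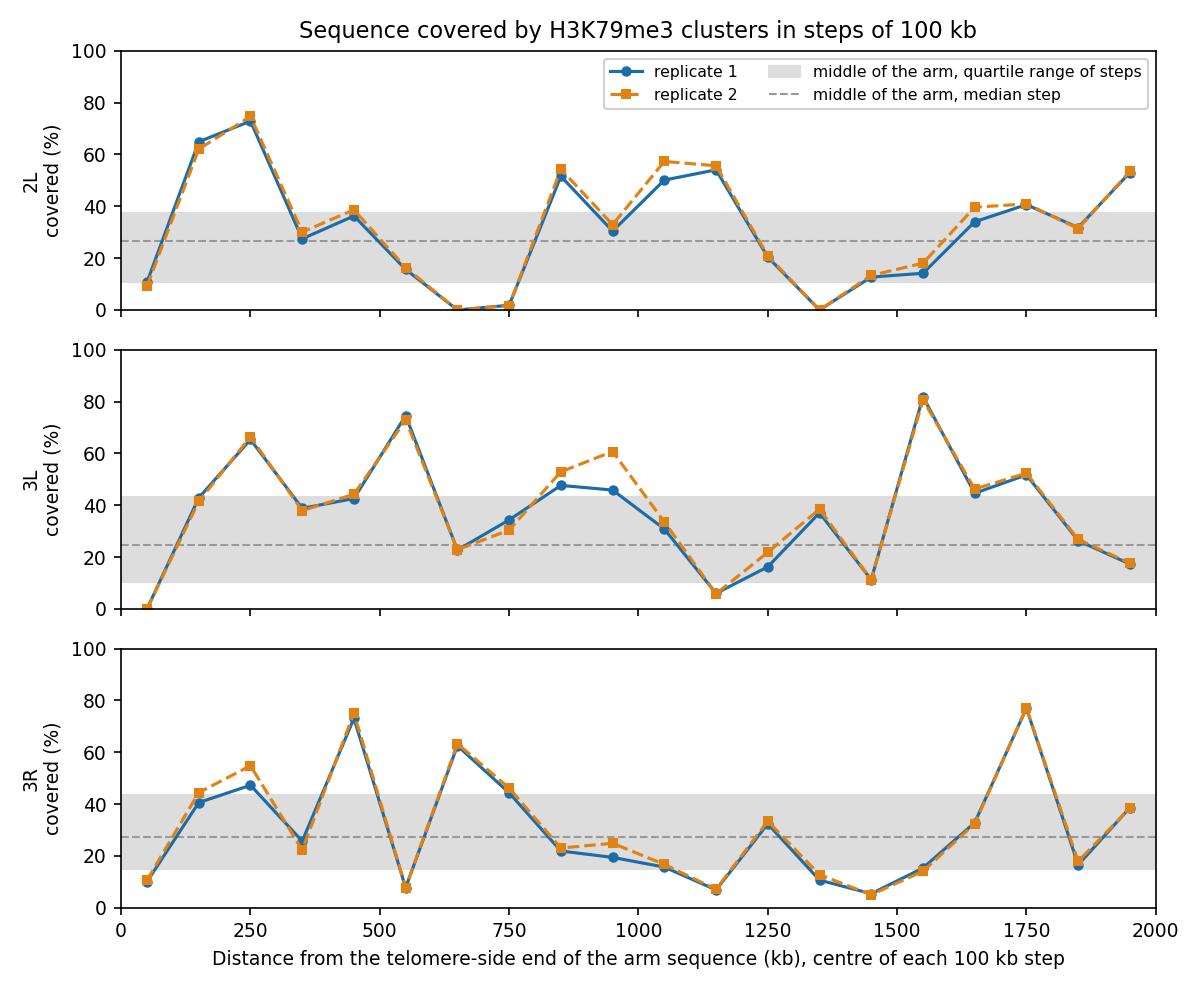
Percentage of each 100 kb step covered by clusters, against the distance of the step from the telomere-side end in kb, for replicate 1 (blue circles) and replicate 2 (orange squares). The dashed line and the grey band give the median and the quartile range of the 100 kb steps in the middle of the same arm. The lines of both libraries lie close together, with at most 14.9 percentage points between them.

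The covered share changed sharply from step to step, and both libraries followed the same course. Across the 60 steps, which are not independent of each other, Spearman's rho between the libraries was 0.99. The libraries differed by a median of 1.20 percentage points per step, and by more than 5 points in 7 of the 60 steps. The largest difference was 14.9 points, on 3L between 900 and 1000 kb, where the values were 45.8% in replicate 1 and 60.7% in replicate 2. Replicate 2 was the higher in 42 of the 60 steps, against 274 of the 514 steps of the middle. In those middle steps rho was also 0.99 and the median difference was 1.23 points. There 44 of the 514 steps differed by more than 5 points, a smaller share than in the windows.

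The 5 most covered steps lay on all 3 arms. On 3L clusters took 81.9% of the step from 1500 to 1600 kb in replicate 1 and 80.7% in replicate 2. On 3R the step from 1700 to 1800 kb held 77.1% in both libraries, and the step from 400 to 500 kb held 73.1% and 75.2%. On 2L the step from 200 to 300 kb held 72.9% and 74.7%, and on 3L the step from 500 to 600 kb held 74.6% and 72.9%. Of the 60 steps, 16 were covered over 50% (26.7%), against 17.9% of the steps of the whole arms and 16.9% of those of the middle.

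The 5 least covered steps were those of 2L from 600 to 700 kb and from 1300 to 1400 kb and the outermost step of 3L, with no cluster in either library, that of 2L from 700 to 800 kb and that of 3R from 1400 to 1500 kb. The step of 2L from 700 to 800 kb was covered to 1.81% and 1.63%, and that of 3R from 1400 to 1500 kb to 5.46% and 5.05%. Low and high steps thus alternated within each window, and the outermost step was the lowest of its arm on 3L but not on 2L or 3R.

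When the steps were joined into 5 zones of distance, the zone from 100 to 500 kb was the most covered over the 3 arms together. The borders of these zones were set after the steps had been seen, so the values describe the windows and no zone is ranked against the middle. The outermost 100 kb held 6.78% ± 0.25 (SD, n = 2) over the 3 arms together, and the zone from 100 to 500 kb held 48.7% ± 0.85. The zones beyond held 33.0% ± 1.4 from 500 to 1000 kb, 21.4% ± 1.1 from 1000 to 1500 kb and 38.8% ± 0.54 from 1500 to 2000 kb.

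The zone from 100 to 500 kb was covered to 50.9% on 2L, 47.4% on 3L and 47.9% on 3R as means of the libraries. On 3L the next zone, from 500 to 1000 kb, was about as covered: 45.0% in replicate 1, 47.9% in replicate 2 and 56.1% in the combined list, against 47.4%, 47.5% and 53.2% from 100 to 500 kb. Over the 3 arms, the zone from 100 to 500 kb was 20.0% of the windows by length. It held 29.4% of their covered bases in replicate 1 and 29.0% in replicate 2.

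Further in, the arms went separate ways. From 500 to 1000 kb the means were 20.5% on 2L, 46.5% on 3L and 32.1% on 3R. From 1000 to 1500 kb they were 28.4%, 21.2% and 14.6% on 2L, 3L and 3R. From 1500 to 2000 kb they were 35.7%, 44.6% and 36.1%.

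**Figure D3:**
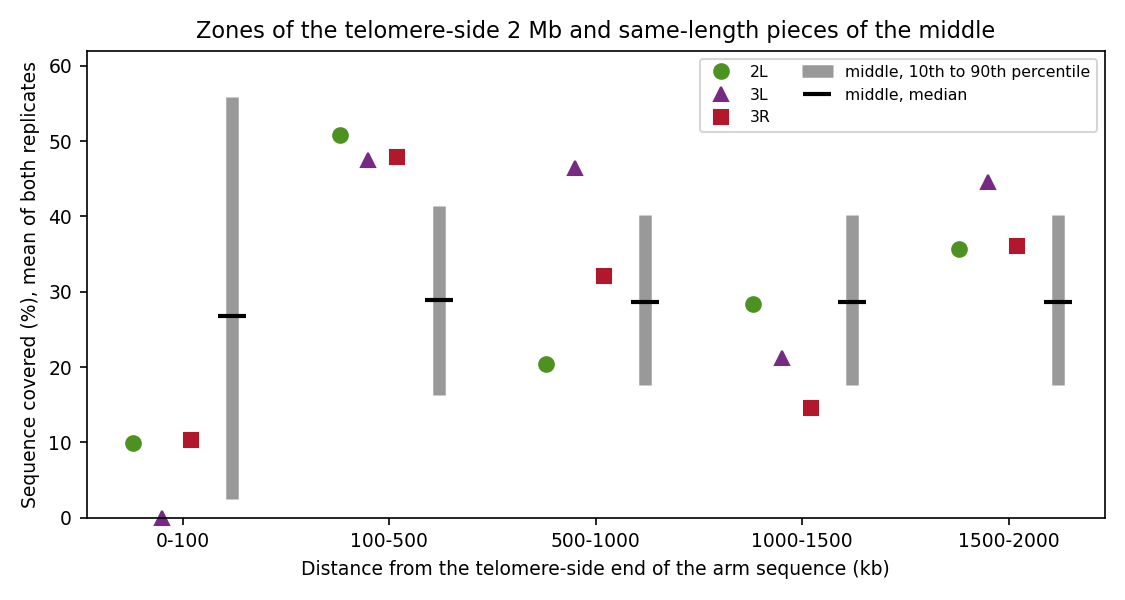
Percentage of sequence covered, as a mean of both libraries, in 5 zones of distance from the telomere-side end (kb) on 2L (green circles), 3L (purple triangles) and 3R (red squares). The grey bar and black line give the 10th to 90th percentile and the median of pieces of the same length in the middle of the arms. From 100 to 500 kb the arms lie at 47.4% to 50.9%; the zone borders were set after the steps had been seen, so a place above or below a bar is no test.

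Over their whole length the telomere-side windows were covered more than the middle of the same arms. Clusters covered 32.7% of the windows and 28.4% of the middle in replicate 1, and 34.0% and 29.0% in replicate 2. The difference was 4.65 ± 0.50 percentage points (SD, n = 2). Both libraries measure the same windows, so this SD does not say how much coverage varies along the arms. As means of the libraries, full 2 Mb windows ranged from 16.6% to 34.8% on 2L, 15.5% to 37.8% on 3L and 16.5% to 44.0% on 3R. Higher coverage at the telomere side was seen on 2L and 3L but not on 3R. On 2L the window held 31.1% and 32.5% in replicates 1 and 2, against 26.8% in both libraries in the middle. On 3L it held 36.9% and 38.2%, against 27.2% and 28.0% in the middle. On 3R it held 30.2% and 31.4%, against 30.7% and 31.6% in the middle, a difference of -0.30 ± 0.20 points. Against the centromere-side 2 Mb of the same arm, the telomere side was again higher on 2L and 3L but lower on 3R. The centromere side held 10.7% and 10.4% on 2L, 4.35% and 4.51% on 3L, and 32.4% and 32.7% on 3R, where the difference was -1.75 ± 0.59 points (SD, n = 2).

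Even where it was high, the telomere-side window was not the most covered of its arm. Among full 2 Mb windows of the arm it ranked 4 of 11 on 2L, 2 of 12 on 3L and 6 of 13 on 3R as a mean of the libraries. On 3L the next 2 Mb held 37.2% and 38.4%, above the telomere-side window in both libraries.

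The number of clusters behind these values differed between the arms. Per Mb, the window of 3L held 66.0 and 68.5 clusters in replicates 1 and 2, against 47.7 and 50.05 in the middle of that arm. That of 3R held 43.0 and 45.5, against 54.0 and 56.4 in the middle, and that of 2L held 46.5 and 51, against 51.8 in both libraries in the middle. 3L was thus high in both number and coverage, while the difference of 2L, -3.04 ± 3.1 clusters per Mb (SD, n = 2), was no larger than its spread. In the combined list the difference of 3L was smaller, at 5.72 clusters per Mb, and that of 3R was -15.1. Over the 3 arms together the difference was 1.24 ± 1.0 clusters per Mb (SD, n = 2), about the size of its spread, and in the combined list it had the other sign, at -4.08.

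Clusters at the telomere side were somewhat wider than those of the middle. Their median width was 4033 bases against 3551 bases in replicate 1, and 3749 against 3505 bases in replicate 2, a difference of 363 ± 168 bases (SD, n = 2). The upper quartile was 7874 against 6511 bases in replicate 1, and 7438.25 against 6455 bases in replicate 2. The median was higher at the telomere side on each of the 3 arms in both libraries, by 791 and 108 bases on 2L, 288.5 and 438 bases on 3L, and 370.5 and 219 bases on 3R. On 2L the mean difference, 449.5 ± 483 bases (SD, n = 2), was no larger than its spread, and in the combined list the difference on 3R was -24.5 bases.

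**Figure D4:**
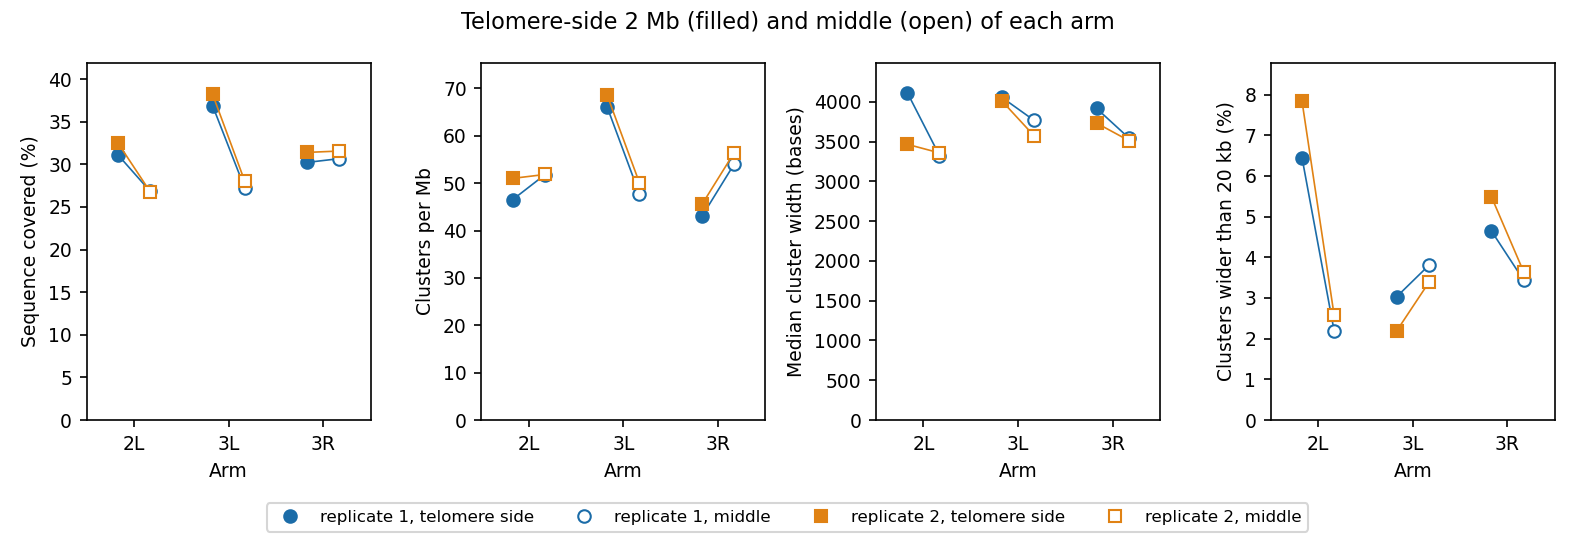
Covered sequence, clusters per Mb, median cluster width in bases and the percentage of clusters wider than 20 kb on each arm, in the telomere-side 2 Mb (filled, left) and the middle (open, right), joined by a line for each library (blue circles, replicate 1; orange squares, replicate 2). 3L has 66.0 and 68.5 clusters per Mb at the telomere side, and 2L has 6.45% and 7.84% of clusters wider than 20 kb there.

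Domains wider than 20 kb made up 14 of 311 telomere-side clusters in replicate 1 (4.50%, 95% Wilson interval 2.70 to 7.41) and 16 of 330 in replicate 2 (4.85%, interval 3.01 to 7.73). The intervals cover counting error only. In the middle the shares were 3.18% and 3.26%, and over the whole of the 3 arms 3.22% and 3.24%, both within those intervals. In the combined list 24 of 319 members were this wide (7.52%), against 5.14% over the whole arms. By arm the shares rest on few domains and have no interval here. On 2L these domains were 6 of 93 clusters in replicate 1 and 8 of 102 in replicate 2. That is 6.45% and 7.84%, against 2.19% and 2.57% in the middle of 2L. Of those in replicate 2 on 2L, 2 overlap a single domain of replicate 1, from 1884460 to 1938205. On 3L they were 3.03% and 2.19%, against 3.80% and 3.38% in the middle, but in the combined list the difference of 3L was 1.24 points in favour of the telomere side. On 3R they were 4 of 86 and 5 of 91 clusters, or 4.65% and 5.49%, against 3.44% and 3.65% in the middle. The longest of those on 3R, 61.9 and 61.5 kb wide, had its midpoint 3.64 and 3.38 kb inside the window.

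None of these domains lay at the arm end itself. The nearest was on 2L, 161.9 kb from the end, from 161896 to 201490 in replicate 1 and from 161888 to 201120 in replicate 2. In the combined list it ran from 161840 to 201418, was the fifth longest of the windows and had a score at the 98.5 percentile. The longest was on 3R, 62.03 kb wide from 25877705 to 25939736, and 1 cluster of replicate 1 took 99.7% of it and 1 cluster of replicate 2 took 99.1%. It crosses the inner border of the window, and its midpoint lies 3.67 kb inside. The second was 53.8 kb wide on 2L from 1884399 to 1938217, which replicate 1 had as 1 cluster and replicate 2 as 2.

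The remaining pair among the 5 longest lay on 3R. One was 42.55 kb wide from 27447624 to 27490173, 415 kb from the end, and each library had it as 3 clusters. The other was 41.1 kb wide from 26102958 to 26144078, and each library had it as 1 cluster. A further 38.5 kb domain stood beside the 41.1 kb domain, from 26149653 to 26188126, and these are the 2 clusters that each library had in the highly covered step of 3R from 1700 to 1800 kb.

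The highest scores of the windows lay on 3L and 3R. Of the 5 highest in the combined list, 4 were on 3L at 1503 to 1798 kb from the end. The highest ran from 1798085 to 1805553 (score 1.83), beside the second, from 1778963 to 1797941 (score 1.79). The other two of 3L ran from 1503083 to 1506947 (score 1.56) and from 1632777 to 1648872 (score 1.55), and that of 3R from 27397220 to 27407182 (score 1.55). Each of these 5 was covered to at least 93.8% in both libraries. As percentiles within each list, scores averaged 51.5 at the telomere side and 48.2 in the middle in replicate 1, and 49.9 and 47.2 in replicate 2. By arm the difference in percentile was 5.89 on 2L, 3.67 on 3L and -1.44 on 3R as means of the libraries, but on 3R the combined list had the other sign, at 1.29.

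The median gap between neighbouring clusters differed between the telomere side and the middle by less than the spread of the libraries. It was 2889.5 against 2894.5 bases in replicate 1, and 2706 against 2697 bases in replicate 2, a difference of 2 ± 9.9 bases (SD, n = 2). Gaps under 1 kb were 26.3% against 27.9% in replicate 1, and 28.7% against 28.1% in replicate 2. On 3R they were 21.2% and 22.2% in replicates 1 and 2, against 26.8% and 27.9% in the middle. On 2L their share was above the middle in both libraries, and on 3L the libraries differed in sign. Gaps over 20 kb were 24.7% and 24.4% on 3R, against 16.5% and 15.2% in the middle. On 2L and 3L the share of gaps over 20 kb was below the middle in both libraries. By arm the medians differed in sign: on 3R the median gap was 3694 and 4010 bases in replicates 1 and 2, against 3042 and 2754.5 bases in the middle, and on 3L it was 2706 and 2172.5 bases, against 2950 and 2799 bases in the middle.

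Across the 60 steps, coverage followed the number of clusters more than their median width. Spearman's rho was 0.75 between coverage and number of clusters, -0.75 between coverage and median gap (59 steps) and 0.13 between coverage and median width (57 steps with a cluster in both libraries). In the middle these were 0.80 (514 steps), -0.73 (500 steps) and 0.39 (474 steps). Steps without a cluster enter the value for number but not that for width. Coverage is made from number and width, so these values describe the steps and are not tests. A step held 0 to 11.5 clusters as a mean of the libraries, with a median of 5.5, and the median width within a step reached 39526 bases.

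**Figure D5:**
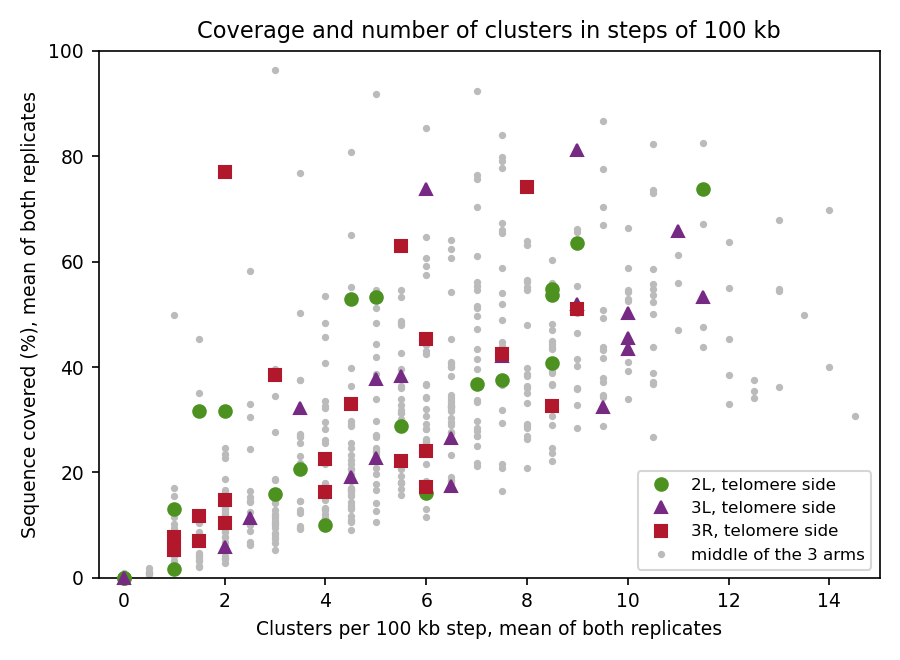
Covered percentage of each 100 kb step against its number of clusters, both as means of the libraries, for the telomere side of 2L (green circles), 3L (purple triangles) and 3R (red squares) and for the 514 steps of the middle (grey points). The telomere-side steps hold up to 11.5 clusters, against up to 14.5 in the middle, and the 3R step with 2 wide clusters stands at 77.1%.

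Stretches longer than 50 kb without a cluster in any list numbered 21 in the 3 windows and took 30.5% of their length, against 32.4% of the middle. By arm they took 37.8% on 2L, 23.6% on 3L and 30.0% on 3R, against 36.7%, 32.1% and 29.3% in the middle of these arms. The longest, of 165 kb, lay on 3R from 26426032 to 26591261. One of 137 kb lay on 2L from 1419411 to 1556273, and the end of 3L came next with 132 kb. After these followed 2L from 576032 to 705654, with 129.6 kb, and 3L from 1352584 to 1464475, with 112 kb. On 3L another gap begins just inside the inner border. After the last member, which ended at 1970120 in replicate 1, no cluster followed for 265 kb in either library. In the combined list none followed for 219.99 kb. The part of this gap inside the window is shorter than 50 kb, so it is not in the 23.6% of 3L.

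Both libraries marked nearly the same telomere-side sequence. Of the members, 296 of 311 in replicate 1 (95.2%, 95% Wilson interval 92.2 to 97.1) and 298 of 330 in replicate 2 (90.3%, interval 86.6 to 93.0) overlapped a cluster of the other library by at least 1 base. Over the whole of the 3 arms, windows included, the shares were 92.4% in replicate 1 and 88.7% in replicate 2, both within those intervals. In the middle they were 91.6%, below the interval of replicate 1, and 88.4%, within that of replicate 2. The intervals cover counting error only and take neighbouring clusters as independent, so a place inside or outside them is no test. Bases covered in both libraries were 86.7% of those covered in either, against 84.3% in the middle. The members found in 1 library only were short and of low score. Replicate 1 had 15, at most 2024 bases wide, with a median score at the 18.3 percentile, and replicate 2 had 32, at most 2954 bases wide, at the 19.8 percentile. In 266 pairs of clusters that overlapped each other most, the borders differed by a median of 145 bases at the start and 158 bases at the end.

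The combined list added less at the telomere side than in the middle. Of its 319 members, 237 overlapped a cluster of both libraries (74.3%), 40 overlapped 1 library (12.5%) and 42 overlapped neither (13.2%). In the middle 65.3% overlapped both and 20.8% neither. The median of the 42 was 1464.5 bases in width and the 15.0 percentile in score, and that of the 237 was 6121 bases and the 66.5 percentile. Whether reads can be placed equally well along the windows, and the input coverage there, were not examined.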

How the data were processed

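The authors deposited 3 region lists on FlyBase release 5, per the file headers: 1 for each of 2 ChIP libraries and 1 for the replicate set. The submitters' processing notes name Bowtie 0.12.7 but no role for it. The region caller, its threshold, the making of the replicate set and the scale of the score deposited with each region remain not given in the sources used here. There are no counts in the lists, so depth is unknown. Inputs were not analysed here.

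Covered bases (clusters clipped at window borders), numbers (by midpoint), widths, gaps and score percentiles were computed for the telomere-side 2 Mb, for the middle (at least 4 Mb from both ends) and in steps of 100 kb, with means and SDs over both libraries. Regions named in the text are the outermost clusters, the 5 longest and 5 highest-scoring members of the combined list, the 5 longest empty stretches and the 5 most and least covered steps. The domain beside that of 41.1 kb, and the gap of 3L at the inner border, were chosen after their values were seen. The arms, windows and measures were chosen with earlier results of these data known. Alternatives were other thresholds, windows, middles and lists, and arms or libraries left out. The measures were tested on simulated maps of 4067 clusters, where 15 of 15 known values were recovered. Software was Python 3.11.15 with the packages numpy 2.4.6, pandas 2.3.3 and scipy 1.17.1, and figures were drawn in matplotlib 3.10.9.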

Additional observations from a re-analysis of the deposited data

Results flagged for a closer look

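For 5 of the main measures the difference between the telomere-side 2 Mb and the middle changed direction between arms. It went one way in both libraries on at least 1 arm and the other way in both libraries on another. The differences between arms were not tested. The covered percentage differed by 4.99 points on 2L and 9.94 points on 3L, but by -0.30 points on 3R, as means of the libraries. Clusters per Mb differed by 18.4 on 3L, -3.04 on 2L and -10.96 on 3R. The median gap differed by 350 bases on 2L, 953.75 bases on 3R and -435.25 bases on 3L. The share of clusters wider than 20 kb differed by 4.77 points on 2L, 1.53 points on 3R and -0.98 points on 3L, where the combined list had the other sign, at 1.24 points. The mean score percentile differed by 5.89 on 2L, 3.67 on 3L and -1.44 on 3R, where the combined list also had the other sign, at 1.29.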

How the results depend on the processing

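Of 124 values recomputed under an alternative, 64 stayed within 1 SD of the libraries, 48 moved further and 12 changed sign. The cause was not tested. With 2 libraries, leaving 1 out always stays within 1 SD, so those values could only change sign and do not show stability. The ranks were equal in both libraries, so any change of rank counted as a move. The covered percentage stayed higher at the telomere side than in the middle under every alternative run. Its difference was 3.98 points with clusters at or above the median score, 3.77 in the combined list, 7.95 for the outermost 1 Mb, 5.55 against the central of 3 equal pieces of the arm, 8.13 against 2 Mb centred on the arm, 2.04 without 3L and 7.44 without 3R. Leaving out the outermost 100 kb, an alternative chosen after seeing the data, gave 6.06 points. With 1 library left out it was 4.30 to 5.01 points.

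The difference in clusters per Mb changed sign to -7.24 without 3L and to -4.08 in the combined list. It was 7.16 for the outermost 1 Mb, 5.08 against 2 Mb centred on the arm, 3.42 without 2L, 7.74 without 3R, 3.00 without the outermost 100 kb and 0.51 to 1.97 with 1 library left out. The difference in median width was 826 bases at or above the median score and 652.5 with clusters closer than 1000 bases joined. It was 802 in the combined list and 244 to 482 with 1 library left out. For the outermost 1 Mb it was 294.5 bases, less than its SD of 324. The remaining alternatives gave 326.5 to 432.25 bases.

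The difference in median gap, 2 bases, had no stable sign. It was -414.5 bases with near clusters joined, -79.75 for 1 Mb, -145.75 for 4 Mb, -6.75 against that central piece, -54.25 against 2 Mb centred on the arm, -44 without 2L, -63.5 without 3R and -67.75 without the outermost 100 kb. It was 103.5 at or above the median score, 36.25 against a middle from 2 Mb off the telomere side, 431 without 3L, 289.5 as a mean of the arms, 273 in the combined list, and -5 to 9 with 1 library left out.

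The difference in the share wider than 20 kb was 0.024 points without 2L. It was 2.86 at or above the median score, 3.03 with near clusters joined, 0.99 for 4 Mb, 1.69 against that central piece, 2.09 against 2 Mb centred on the arm, 3.10 without 3L, 1.77 as a mean of the arms, 2.57 in the combined list and 1.32 to 1.59 with 1 library left out. That in the share overlapped in the other library was -2.25 points at or above the median score and 1.88 to 3.54 with 1 library left out. That in mean score percentile was 1.69 at or above the median score, 1.88 with near clusters joined, 0.17 for 1 Mb, 3.62 for 4 Mb, 4.01 against 2 Mb centred on the arm, 1.84 without 2L, 2.05 without 3L, 4.91 without 3R, 5.72 in the combined list and 2.68 to 3.35 with 1 library left out.

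With clusters of the upper 50% of scores, the outermost one lay at a mean of 84093 bases on 2L and 93847 bases on 3R. Both average different clusters, 73796 and 94390 bases on 2L and 10736 and 176958 bases on 3R in replicates 1 and 2. With all clusters the distance was, in the combined list, 131949 bases on 3L and 10714 on 3R, and with 1 library left out 67211 to 67329 on 2L, 132048 to 132095 on 3L and 10736 to 10747 on 3R. Steps covered under 10% were 27.1% in steps of 50 kb and 5% in steps of 200 kb, against 14.2% as a mean over the libraries taken singly in steps of 100 kb. In windows of 1 Mb the outermost window ranked 8 on 2L and 7 on 3R, and in the combined list the 2 Mb window of 3R ranked 8. No paired analysis was possible because the input libraries, which share replicate numbers with the ChIP libraries, have no list of regions here; this concerns ChIP against input, and the differences between windows were taken within each library. Depth is unknown, so clusters near the authors' threshold have no counting interval.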

Other observations

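The telomere-side ends of X and 2R were measured in the same way. On X the nearest cluster lay 23868 bases from the end in replicate 1 and 24173 bases in replicate 2, and on 2R 4189 and 4386 bases. The outermost 100 kb was covered to 6.37% and 6.90% on X and to 1.97% and 1.83% on 2R. From 100 kb to 2 Mb the covered share was 37.4% and 38.1% on X and 29.1% and 30.0% on 2R. The whole 2 Mb held 35.8% and 36.5% on X, against 25.6% and 25.9% in the middle of X, and 27.8% and 28.6% on 2R, against 32.5% and 33.0% in the middle of 2R. Like 3R, 2R was thus not more covered at its telomere side than in its middle in either library. On 3R the mean difference was only -0.30 points, while 2R lay further below its middle in both libraries.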
